A study of Homo sapiens with 24 samples.

Results

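The 57 genes described here lie on the short arm of chromosome 3, between CNTN4 and ARPP21, and were listed because this stretch stood higher in the SLFN11-knockout line than in its parental line. The choice used the knockout minus parental difference in all 8 groups of arrays, so that difference is described for these genes below, without a test, and nothing is drawn from it. A single probe set was found for each of 55 of the 57 genes, out of 17687 genes measured, and the signals of TATDN2 and TOP2B were not analysed here. Of the 55, 38 were expressed, meaning a mean log2 signal above 6 over all 24 arrays, and 17 were dim.

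RNA came from ES8, a human Ewing sarcoma cell line, on whole-transcript expression arrays. The knockout groups were 1 derivative line, ES8-1F2, in which SLFN11, which encodes a helicase-like protein that blocks stressed replication forks, had been disrupted with CRISPR/Cas9. The parental groups were the unmodified ES8 line, and both lines grew in DMEM/F12 with glutamine and 10% fetal bovine serum. Cells of each line were irradiated with gamma rays (2 Gy) or left without (0 Gy) and harvested after 4 h or 24 h, which gave 8 groups of 3 arrays. Because the knockout line is a single derivative, a difference between the lines cannot be told apart as an effect of SLFN11 loss or of other differences between these 2 cultures. The labels do not say that the replicates were separate cultures, and the spread behind the p-values may therefore be technical. In bulk RNA, fewer cells that express a gene and less RNA per cell cannot be told apart.

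Neighbouring genes on a chromosome arm usually serve unrelated functions, yet they share their DNA copies and, in part, their chromatin. The short arm of chromosome 3 is known for tumour suppressor genes that are lost in kidney and lung cancers, among them VHL, the substrate receptor of the ligase that marks hypoxia-inducible factors for destruction. It also holds CRBN, the target of thalidomide-type drugs, OGG1 and RAD18 of DNA repair, PPARG, the master regulator of fat cell formation, and a cluster of CMTM genes, which encode small proteins that cross the membrane several times.

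Promoters of 5 listed genes are shown because CMTM8, CMTM7 and CMTM6 are neighbours whose signals differed between the lines to very unequal extents, SH3BP5 had the largest difference among the other expressed genes, and TIMP4 was the dim gene that stood furthest above its parental level. Each line gives the 250 bases before the start of the gene, 5′ to 3′, from RefSeq GRCh38.p14, with GC boxes in capitals (GGGCGG, or CCGCCC where the box lies on the other strand). The CMTM8 window is chr3:32238430-32238679 on the plus strand and the CMTM7 window is chr3:32391603-32391852 on the plus strand. The CMTM6 window is chr3:32502853-32503102, the SH3BP5 window is chr3:15332587-15332836 and the TIMP4 window is chr3:12158913-12159162, all on the minus strand.
CMTM8: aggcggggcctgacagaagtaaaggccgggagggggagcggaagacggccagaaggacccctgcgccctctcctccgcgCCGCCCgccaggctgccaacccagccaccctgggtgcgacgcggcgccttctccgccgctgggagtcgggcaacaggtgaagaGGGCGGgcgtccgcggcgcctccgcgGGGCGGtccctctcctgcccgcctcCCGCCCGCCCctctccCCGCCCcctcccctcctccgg
CMTM7: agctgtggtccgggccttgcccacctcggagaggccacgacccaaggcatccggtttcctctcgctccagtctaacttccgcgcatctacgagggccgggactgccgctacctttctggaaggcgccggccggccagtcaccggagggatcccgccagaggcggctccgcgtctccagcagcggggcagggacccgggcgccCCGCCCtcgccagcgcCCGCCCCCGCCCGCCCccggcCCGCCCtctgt
CMTM6: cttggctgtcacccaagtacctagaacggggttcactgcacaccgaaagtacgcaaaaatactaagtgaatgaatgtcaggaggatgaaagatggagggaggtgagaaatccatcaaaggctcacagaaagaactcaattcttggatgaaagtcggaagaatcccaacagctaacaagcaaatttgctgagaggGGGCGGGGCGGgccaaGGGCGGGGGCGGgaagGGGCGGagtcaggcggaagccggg
SH3BP5: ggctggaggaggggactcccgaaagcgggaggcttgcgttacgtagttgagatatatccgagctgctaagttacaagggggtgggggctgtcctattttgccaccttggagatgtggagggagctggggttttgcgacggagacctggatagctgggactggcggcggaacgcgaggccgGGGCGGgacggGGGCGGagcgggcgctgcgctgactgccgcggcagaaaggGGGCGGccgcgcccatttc
TIMP4: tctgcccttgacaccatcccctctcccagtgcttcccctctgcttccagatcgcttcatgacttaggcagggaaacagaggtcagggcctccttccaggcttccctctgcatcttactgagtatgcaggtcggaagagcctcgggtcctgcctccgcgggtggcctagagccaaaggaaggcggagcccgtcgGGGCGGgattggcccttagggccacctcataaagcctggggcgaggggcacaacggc
The CMTM8 window held 6 GC boxes, the CMTM7 window 5 and the CMTM6 window 5, overlapping boxes included. SH3BP5 had 3 and TIMP4 had 1. Windows were found for 54 of the 57 listed genes, TATDN2 and TOP2B included, and 39 of these (72.2%) held a GC box, against 42.3% of 27305 windows of all genes of the same length. The 27305 are all RefSeq genes with a window, more than the 17687 measured here, and were not limited to expressed genes. They are therefore not matched to the listed genes, and whether these values are particular to the stretch was not tested. The median GC content was 66.8% in the windows of listed genes and 58.0% in those of all genes. Their median number of CG dinucleotides was 23, against 11 over all genes. The tandem GGAAGGAA, a short form of the GGAA repeats that the Ewing fusion protein binds, was in 0 of the 54 windows and in 2.99% of all windows, searched on both strands. The E-box CACGTG, the element of clock and MYC family factors, was in 7 of the 54 windows (13%) and in 6.49% of all windows. These letters describe the windows only, and binding was not measured.

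The arrays were close to each other in every group, with correlations of log2 signal of 0.985 to 0.993 within groups and 0.971 to 0.983 between the lines. SLFN11 itself read 6.33 at the lowest, 6.97 at the median and 7.07 at the highest of the 12 knockout arrays, against 8.03, 8.30 and 8.63 in the 12 parental arrays, a mean difference of -1.47, and it was lower at every dose and time. Of 14 measured Ewing sarcoma markers, 10 averaged above 6 in the knockout line and 11 in the parental line, and 4 were called higher and 3 lower in the knockout line in all 4 conditions, beside 3.54% and 2.84% of all genes. The 4 were CD99 (0.28), LIPI (0.83), PRKCB (1.02) and FCGRT (0.67), and the 3 were STEAP1 (-0.58), STEAP2 (-0.44) and GLI1 (-0.92). Among the other lists, none of 8 epithelial, 6 blood cell and 6 endothelial markers averaged above 6 in either line. The array medians of the epithelial markers were 3.19 to 3.47 in the knockout line and 3.18 to 3.83 in the parental line. Those of the blood cell markers were 3.14 to 3.43 in the knockout line and 3.10 to 3.52 in the parental line, and those of the endothelial markers were 3.41 to 3.89 in the knockout line and 3.41 to 4.10 in the parental line. The background level, the 95th percentile of 612 negative control probe sets on an array, was 3.46 to 3.81.

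The listed expressed genes were shifted together, and by a similar amount at every dose and time. Their median difference, knockout minus parental, was 0.47 on the log2 scale at 0 Gy and 4 h, 0.45 at 0 Gy and 24 h, 0.46 at 2 Gy and 4 h and 0.46 at 2 Gy and 24 h, while the median of all 6997 expressed genes lay between 0.004 and 0.014 in the same comparisons. Averaged over the 4 conditions, the median was 0.46, a ratio of 1.37, with quartiles of 0.32 and 0.63. Of the 38 genes, 36 had a mean above 0 and 27 lay between 0.25 and 0.75, a band that held 13.2% of all expressed genes. The expressed class was set on the mean over both lines. In it 3 genes had a parental median under 6, CMTM7 (5.94), SH3BP5 (5.73) and NGLY1 (5.84), whereas none had a knockout median under 6. These 3 passed the floor through their knockout signal, and they also had the largest differences of the class, 2.95, 1.28 and 0.92. Their rank is therefore a description only. TIMP4, with a knockout median of 6.34, was classed as dim.

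The shift was visible on single arrays. The median log2 signal of the 38 expressed genes was 7.58 to 7.71 over the 12 knockout arrays and 6.92 to 7.17 over the 12 parental arrays, so the lines did not overlap. The median of all expressed genes was 7.37 to 7.47 in knockout arrays and 7.31 to 7.45 in parental arrays. The 17 dim genes had array medians of 4.65 to 5.30 in the knockout line and 4.14 to 4.84 in the parental line, which overlapped.

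**Figure D1:**
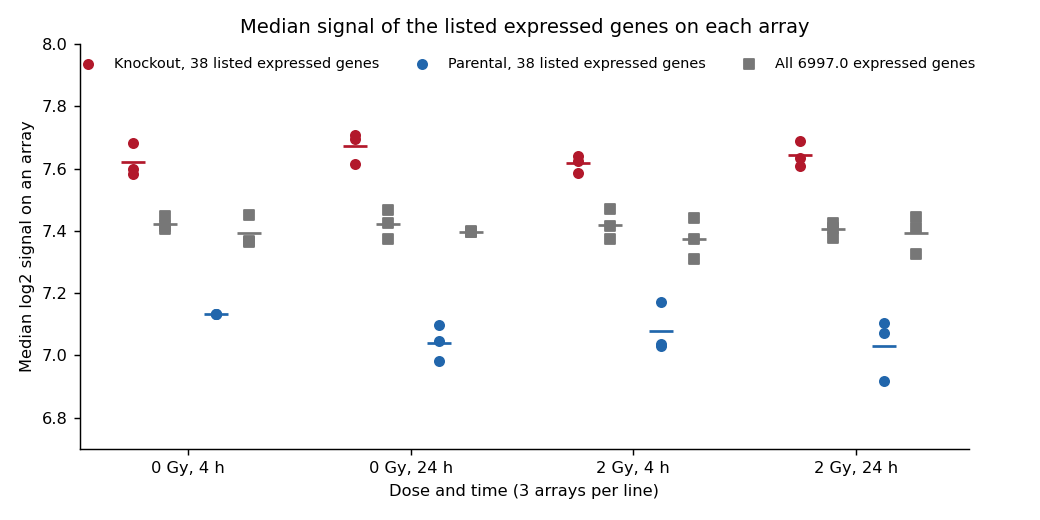
Median log2 signal on each array of the 38 listed expressed genes (circles, red for knockout and blue for parental) and of all 6997 expressed genes (grey squares), by dose and time; short lines are means of 3 arrays and the axis does not start at 0. Circles of the knockout line lie between 7.58 and 7.71 and those of the parental line between 6.92 and 7.17, whereas the squares of both lines lie between 7.31 and 7.47.

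A gene is called where its limma p, adjusted by Benjamini-Hochberg over all genes, was under 0.05, and for the lines these counts are a description. At 0 Gy and 4 h 32 of the 55 listed genes were called higher in the knockout line, beside 6.27% of all genes. At 0 Gy and 24 h 36 were called higher, beside 6.47% of all genes. At 2 Gy and 4 h there were 29, beside 6.87%, and at 2 Gy and 24 h there were 30, beside 6.29%. Of the 38 expressed genes 28, 30, 23 and 26 were called higher in that order. The shares of all expressed genes called higher were 10.7%, 10.8%, 11.3% and 10.2%. Of the 17 dim genes 4, 6, 6 and 4 were called higher. The only listed gene called lower in any of the 4 was SATB1, which was called lower in all of them, beside 5.5%, 5.09%, 5.13% and 5.68% of all genes called lower in the same order. In all 4 conditions 23 listed genes were called higher, beside 3.54% of all genes, and 20 of them were expressed, beside 6.33% of all expressed genes. For 21 listed genes every knockout array was above every parental array, beside 3.22% of all genes. Of these, 19 were expressed, beside 5.83% of all expressed genes. For 1 listed gene, SATB1, every knockout array was below, beside 2.43% of all genes.

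The 129 measured genes between CNTN4 and ARPP21 include 74 that the list does not name, and the 23 expressed ones among them were shifted in the same way. Their median difference was 0.52, with quartiles of 0.42 and 0.63, and all 23 lay above 0. The smallest were GPD1L at 0.09 and UBE2E2 at 0.15, and the largest was SUSD5 at 1.11 (these 3 were chosen after their values were seen). The 51 unlisted dim genes had a median of 0.06. On the rest of chromosome 3 the 293 expressed genes had a median of 0.0001. In all 4 conditions 14 of them (4.78%) were called higher and 11 lower. Of all 6997 expressed genes, 443 (6.33%) were called higher and 319 lower in all 4. The stretch was defined on the same contrast, so these values are a description too.

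**Figure D2:**
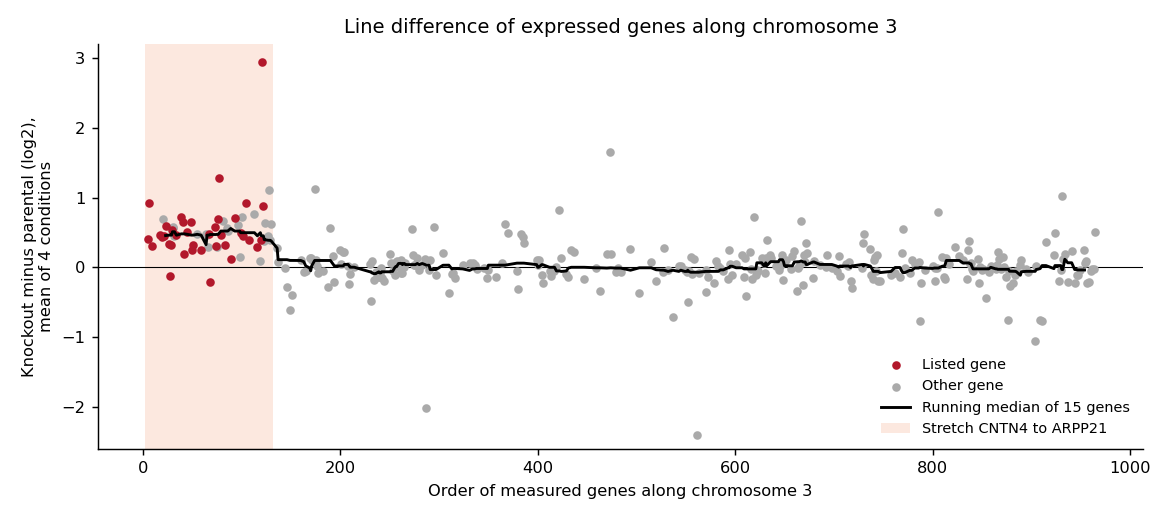
Knockout minus parental difference (log2, mean of 4 conditions) of the 354 expressed genes of chromosome 3 against their order among measured genes, with listed genes in red, others in grey, and a running median of 15 expressed genes as a black line; the shaded band is the stretch from CNTN4 to ARPP21. The running median lies between 0.32 and 0.56 where all 15 genes are inside the stretch and between -0.11 and 0.12 where all are outside.

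At the telomeric end no expressed gene was measured outside the stretch, so whether the values step there cannot be read. The measured genes outside it, CHL1 and CNTN6, were both dim. CHL1, a neural adhesion gene, was below background on every array of both lines, and CNTN6, a contactin, had a difference of 1.08 and was called higher in 2 conditions. Just inside came CNTN4, IL5RA and TRNT1. Of these only TRNT1, at 0.40, was expressed. CNTN4 (0.65) was above background on 8 knockout and 4 parental arrays and IL5RA (-0.00) on 0 knockout and 4 parental arrays, so no difference is read from either. On the other side, UBP1 at 0.39, CLASP2 at 0.62 and ARPP21 at -0.13 were the last 3 measured genes inside. STAC at -0.61, DCLK3 at -0.02 and TRANK1 at -0.11 were the first 3 outside, and all 3 were dim. The first expressed genes outside, chosen after their values were seen, were LRRFIP2 at 0.28, GOLGA4 at 0.08 and, slightly further on, ACAA1 at -0.01 and OXSR1 at -0.29. The first 20 expressed genes past ARPP21 had a median of 0.05.

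The order of the genes by size of the difference was much the same at each dose and time. Over the 38 expressed genes, the differences of any 2 conditions correlated with Pearson r of 0.95 to 0.97 and Spearman rho of 0.80 to 0.85. Without CMTM7 and SH3BP5 Pearson r was 0.82 to 0.89. Each condition has its own arrays, but all conditions share the 2 lines and the same probes, so these correlations are a description. Over the same 38 genes, the difference and the mean level had a Pearson r of -0.04 and a Spearman rho of 0.09, and the difference and the order along the chromosome a rho of 0.14.

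**Figure D3:**
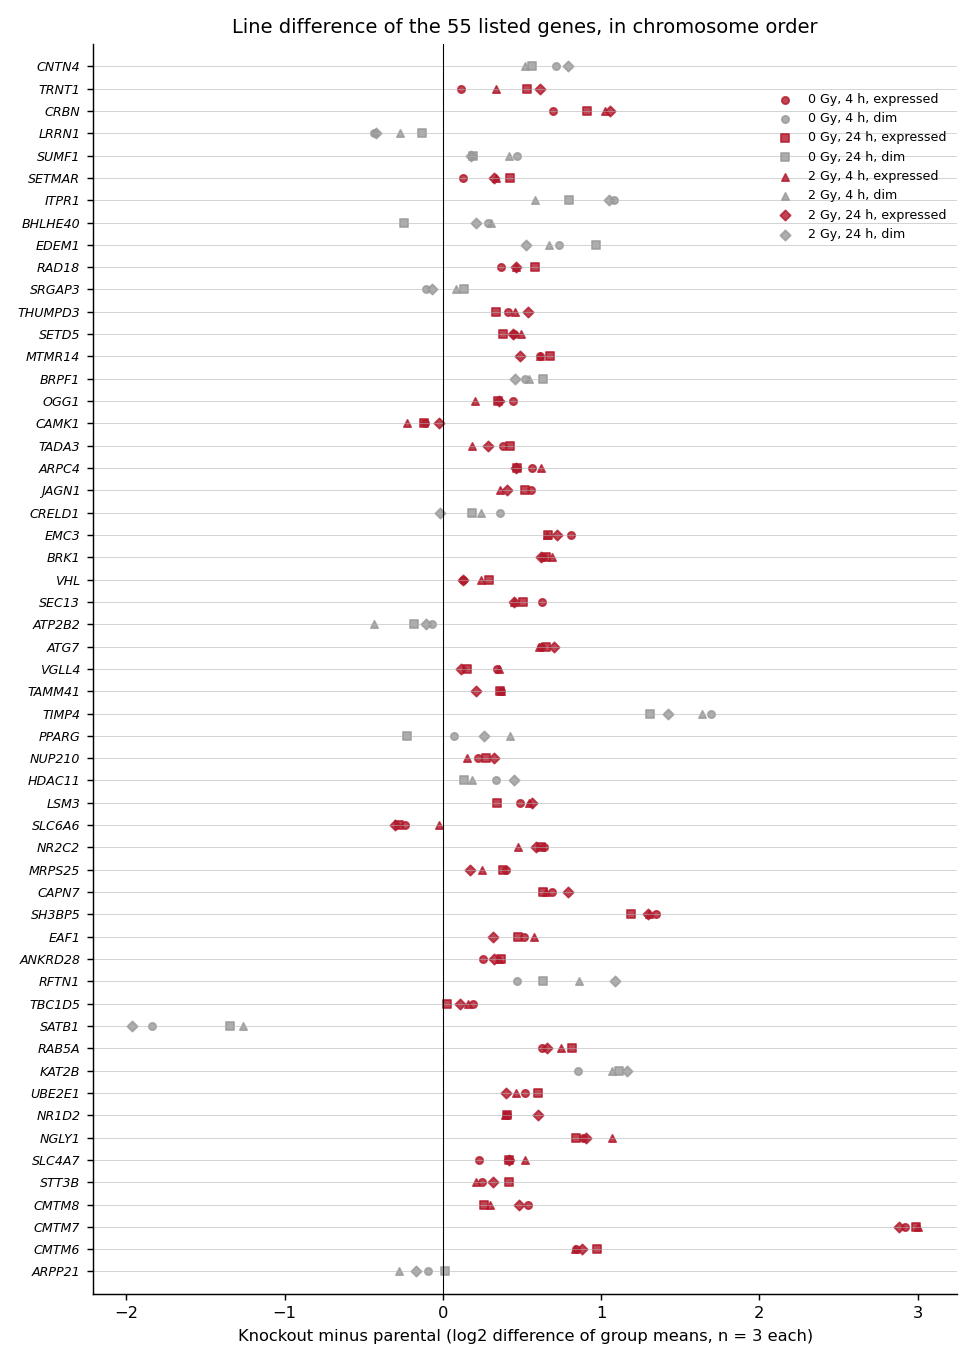
Knockout minus parental difference (log2 difference of group means, 3 arrays per group) of the 55 measured listed genes at each dose and time, listed in chromosome order with CNTN4 at the top; red symbols are expressed genes, grey symbols dim genes. Most red symbols lie between 0.25 and 0.75, CMTM7 lies between 2.88 and 3.0, and SATB1 lies between -1.96 and -1.26.

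The CMTM cluster held the largest difference of the list. CMTM7, a membrane protein known from B cell receptor transport and endosomal traffic, read 8.59 at the lowest, 8.80 at the median and 8.89 at the highest of the knockout arrays, against 5.49, 5.94 and 6.06 in the parental arrays. The lines were separated by more than the whole range of either, and the mean difference of 2.95 is a ratio of 7.72. In each condition it was nearly the same, between 2.88 and 3.0. CMTM6, which stabilises the immune checkpoint ligand PD-L1 at the cell surface, read 6.81, 7.05 and 7.39 in knockout arrays and 5.91, 6.16 and 6.48 in parental arrays, a mean difference of 0.88 without overlap. CMTM8, linked to the turnover of growth factor receptors, read 6.16, 6.49 and 6.78 in knockout arrays and 5.79, 6.11 and 6.44 in parental arrays, a mean difference of 0.39 with overlap. CMTM7 lies between the other two, so the unequal differences belong to immediate neighbours.

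Of the genes of protein breakdown and ubiquitin transfer described here, CRBN and NGLY1 had the largest differences. CRBN, the substrate receptor of a CUL4 ubiquitin ligase and the target of lenalidomide, read 7.62, 7.76 and 8.05 at the lowest, median and highest knockout array, against 6.42, 6.87 and 7.36 in parental arrays. The lines did not overlap and the mean difference was 0.92. NGLY1, the cytosolic enzyme that strips N-glycans from misfolded proteins, read 6.44, 6.76 and 7.17 in knockout arrays and 5.35, 5.84 and 6.20 in parental arrays, with the same mean difference of 0.92 and no overlap. UBE2E1, a ubiquitin-conjugating enzyme, differed by 0.50 without overlap. VHL read 6.84, 6.97 and 7.26 in knockout arrays and 6.51, 6.85 and 7.08 in parental arrays, and its mean difference of 0.20 was among the smallest of the expressed genes.

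DNA repair was represented by RAD18 and OGG1. RAD18, the ubiquitin ligase that marks PCNA at stalled forks, read 7.60, 7.71 and 8.0 in knockout arrays and 7.10, 7.31 and 7.41 in parental arrays, a mean difference of 0.47 without overlap. OGG1, the glycosylase that removes oxidised guanine, read 7.56, 7.74 and 7.90 in knockout arrays and 7.26, 7.35 and 7.61 in parental arrays. Its mean difference was 0.34 and the ranges overlapped. SETMAR, a histone methyltransferase fused to a transposase and linked to end joining, differed by 0.30 with overlap.

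The chromatin and transcription genes held both directions. KAT2B, an acetyltransferase also called PCAF, was dim at 4.61, 5.09 and 5.69 in knockout arrays and 3.86, 4.08 and 4.74 in parental arrays, a mean difference of 1.05. SATB1, a genome organiser known from T cells, was the exception of the list, at 3.41, 4.26 and 4.79 in knockout arrays against 5.55, 5.77 and 6.14 in parental arrays. Its ranges did not overlap, its mean difference was -1.60, and 2 of the 12 knockout arrays were not above background. TADA3, an adaptor subunit of acetyltransferase complexes, differed by 0.32, SETD5, a SET domain protein, by 0.44, and EAF1, a partner of the elongation factor ELL, by 0.47. BRPF1, a scaffold of the MOZ acetyltransferase, was dim and differed by 0.54. HDAC11, a deacetylase, was not above background on any array.

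Of the nuclear receptors and other DNA-binding factors, NR2C2, an orphan receptor, differed by 0.58 without overlap. NR1D2, a repressor of the circadian clock, differed by 0.45, with overlap. BHLHE40, a clock and stress repressor, was dim at 5.31, 5.70 and 6.14 in knockout arrays and 5.21, 5.56 and 5.98 in parental arrays. Its difference of 0.14 changed sign between conditions. PPARG was above background on 1 of 12 knockout arrays and on none of the parental arrays, so no fold is given for it. VGLL4, a competitor of YAP for TEAD factors, differed by 0.24 with overlap.

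The differences of the secretory pathway genes described here ranged between 0.19 and 0.72. EMC3, a core subunit of the complex that inserts proteins into the endoplasmic reticulum membrane, read 7.55, 7.79 and 8.12 in knockout arrays and 6.81, 7.11 and 7.27 in parental arrays, a mean difference of 0.71 without overlap. SEC13, shared by COPII coats and the nuclear pore, differed by 0.51 and JAGN1, an endoplasmic reticulum protein needed by neutrophils, by 0.46, both without overlap. STT3B, a catalytic subunit of the oligosaccharyltransferase, differed by 0.30, with overlap. ANKRD28, a regulatory subunit of phosphatase PP6, differed by 0.33. The dim EDEM1, which delivers misfolded glycoproteins for breakdown, differed by 0.72 and was called higher in 3 conditions. The dim SUMF1, which activates sulfatases, differed by 0.31 and the dim CRELD1 by 0.19.

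The differences of the actin, endosome and autophagy genes described here ranged between 0.01 and 0.71. ARPC4, a subunit of the actin-nucleating ARP2/3 complex, differed by 0.53, and BRK1, the smallest WAVE subunit, by 0.65, both without overlap. The readthrough gene ARPC4-TTLL3 differed by 0.58 (chosen after its value was seen) and shares sequence with ARPC4, so both signals may not be separate. RAB5A, the GTPase of early endosomes, read 9.56, 9.62 and 9.84 in knockout arrays against 8.74, 8.89 and 9.12 in parental arrays, a mean difference of 0.71 without overlap. ATG7, the activating enzyme of autophagy conjugation, read 6.88, 7.32 and 7.69 in knockout arrays and 6.43, 6.68 and 7.0 in parental arrays. It was called higher in all 4 conditions, with a mean difference of 0.65, although the ranges overlapped. CAPN7, a calpain that binds the ESCRT machinery, differed by 0.69 and MTMR14, a phosphoinositide phosphatase, by 0.60, both without overlap. TBC1D5, which switches off the endosomal GTPase RAB7, differed by 0.12 and was called in no condition. The dim SRGAP3, a GTPase-activating protein for RAC, differed by 0.01.

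The differences of the signalling and transport genes described here ranged between -0.21 and 1.28. SH3BP5, an exchange factor for RAB11 that also docks JNK at mitochondria, read 6.81, 7.0 and 7.26 in knockout arrays and 5.49, 5.73 and 6.05 in parental arrays. The lines did not overlap and the mean difference of 1.28 is a ratio of 2.44. ITPR1, the calcium channel of the endoplasmic reticulum, was dim at 4.52, 4.89 and 5.51 in knockout arrays and 3.61, 3.98 and 4.45 in parental arrays, a mean difference of 0.88 without overlap. CAMK1, a calcium and calmodulin kinase, read 6.04, 6.39 and 6.64 in knockout arrays and 6.23, 6.51 and 6.88 in parental arrays. SLC6A6, the taurine transporter, read 7.47, 7.71 and 8.24 in knockout arrays and 7.86, 7.99 and 8.14 in parental arrays. The 2 expressed genes with a mean below 0 were these, CAMK1 at -0.12 and SLC6A6 at -0.21, and neither was called in any condition. SLC4A7, a sodium bicarbonate cotransporter, differed by 0.40. The dim RFTN1, a lipid raft protein, differed by 0.76, and ATP2B2, a plasma membrane calcium pump, by -0.20.

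The differences of the RNA, nuclear pore and mitochondrial genes described here ranged between 0.24 and 0.48. LSM3, a ring protein of the U6 snRNP, differed by 0.48 and THUMPD3, a tRNA methyltransferase, by 0.43, both without overlap. TRNT1, which adds the CCA end to tRNAs, differed by 0.40, TAMM41, a mitochondrial phospholipid enzyme, by 0.32 and MRPS25, a mitochondrial ribosomal protein, by 0.30, all with overlap. NUP210, a nuclear pore membrane protein, differed by 0.24 and was called in no condition. TIMP4, an inhibitor of matrix metalloproteinases, had the second largest difference in size among the dim genes after SATB1. It read 5.36, 6.34 and 7.62 in knockout arrays against 4.55, 5.0 and 5.11 in parental arrays, a mean difference of 1.52 without overlap. Its knockout arrays spread more widely than its parental ones. Replicate 3 was the highest knockout array in each condition, at 7.49 and 6.83 without radiation (4 h and 24 h) and 7.62 and 6.64 after 2 Gy. The size of the TIMP4 difference therefore leans on that replicate number. The neural genes were at or near background. CNTN4, a contactin, was above background on 8 knockout and 4 parental arrays. LRRN1, a leucine-rich repeat membrane protein, was above it on 0 knockout and 4 parental arrays, and ARPP21, a neuronal phosphoprotein, on 6 knockout and 10 parental arrays.

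Many listed genes encode single subunits of complexes or members of pathways whose other genes lie elsewhere. To set the listed genes beside those partners, 19 lists of such genes were drawn up, with 259 different measured genes outside the stretch, 178 of them expressed. At 0 Gy and 4 h 20 partners were called higher (7.72%) and 21 lower (8.11%), beside 6.27% and 5.5% of all genes. At 0 Gy and 24 h the counts were 23 (8.88%) and 19 (7.34%), beside 6.47% and 5.09%. At 2 Gy and 4 h they were 20 and 20 (7.72% each), beside 6.87% and 5.13%. At 2 Gy and 24 h they were 21 (8.11%) and 27 (10.4%), beside 6.29% and 5.68%. Of all expressed genes a larger share was called, 10.2% to 11.3% higher and 18.7% to 19.1% in either direction in the 4 comparisons. The median partner difference lay between -0.01 and 0.04 in the 4 comparisons. In all 4 conditions 11 partners were called higher and 9 lower, beside 3.54% and 2.84% of all genes. With the replicate number as a block on the compared arrays only, a setting chosen after seeing the data, 32 partners were called higher at 0 Gy and 4 h. Some counts rested on single arrays. At 0 Gy and 4 h 12 partners were called higher without parental replicate 2, and 12 and 13 lower without parental replicate 3 and knockout replicate 1. At 0 Gy and 24 h 15 and 12 were called higher without parental replicates 1 and 3 and 12 without knockout replicate 3, and 12 were called lower without parental replicate 1. At 2 Gy and 4 h 13 were called higher without parental replicate 1, and at 2 Gy and 24 h 16 and 17 were called lower without parental replicates 1 and 3 and 17 without knockout replicate 2.

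Within these complexes, each listed subunit stood above the median of its partners in the signal difference, by unequal amounts. ARPC4 differed by 0.53 while 6 other ARP2/3 genes had a median of 0.13 and a highest value of 0.33, for ARPC2. EMC3 differed by 0.71 while the 9 other measured genes of its complex had a median of 0.04, and the expressed ones ranged between -0.37 and 0.14. BRK1 differed by 0.65 beside a median of 0.07 for 8 WAVE genes, of which CYFIP2 rose by 1.08. LSM3 differed by 0.48 beside a median of 0.04 for 6 LSM genes. MRPS25 differed by 0.30 beside a median of 0.003 for 27 other small subunit genes, and STT3B by 0.30 beside 0.02 for 10 oligosaccharyltransferase genes. SEC13 differed by 0.51 and NUP210 by 0.24 beside a median of 0.14 for 20 pore and COPII genes. Of these 20, NUP43 (0.46) and SAR1A (0.44) rose and AHCTF1 (-0.38) fell in all 4 conditions. NUP210 thus lay below NUP43 and SAR1A. TADA3 and KAT2B differed by 0.32 and 1.05 beside a median of -0.03 for 21 SAGA and ATAC genes, of which SUPT3H (-0.69), ZZZ3 (-0.61) and ENY2 (-0.45) fell in all 4 conditions. These listed values were part of the choice of the genes, and the difference between a member and its partners was not tested.

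**Figure D4:**
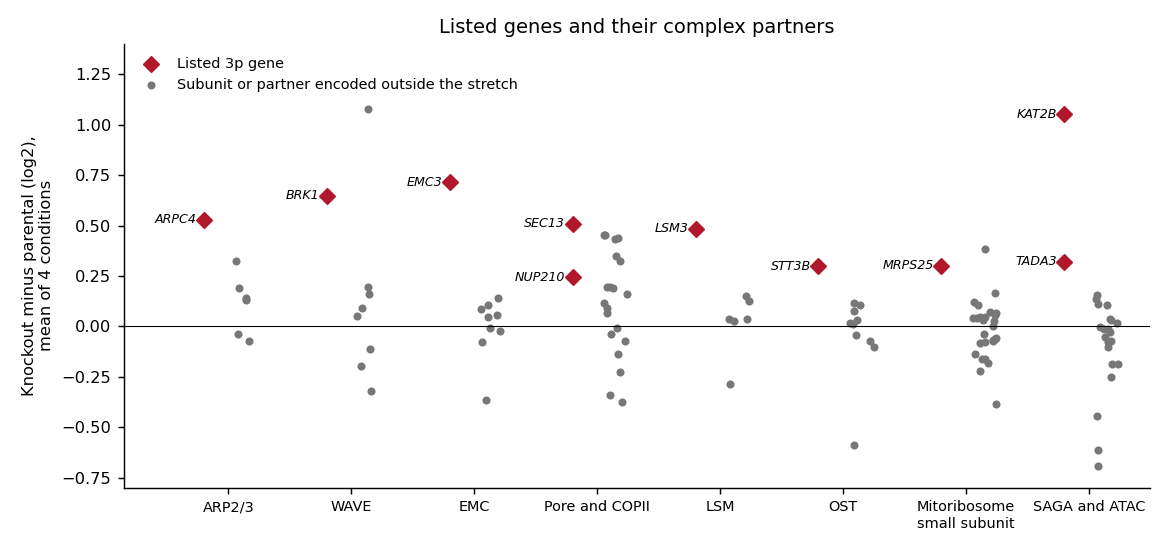
Knockout minus parental difference (log2, mean of 4 conditions) of listed genes (red diamonds, named) and of their complex partners encoded outside the stretch (grey points) for 8 complexes. The diamonds lie between 0.24 and 1.05, and 87 of 107 grey points lie between -0.25 and 0.25, with CYFIP2 at 1.08 and SUPT3H at -0.69 as the highest and lowest partners.

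None of the 9 partners of VHL, which include its elongin and cullin subunits and the HIF prolyl hydroxylases, was called in all 4 conditions. HIF1A was called higher in 1 condition and ELOB lower in 1. Of 21 HIF target genes, 3 were called higher and 4 lower in at least 1 condition. In single conditions 1 to 3 were called higher and 2 to 4 lower, beside 6.27% to 6.87% and 5.09% to 5.68% of all genes. MXI1 (-0.43) was called lower in 3, VEGFA (-0.28) and PFKFB3 (-0.42) lower in 2, P4HA1 (0.37) higher in 2 and DDIT4 (0.33) higher in 1 (these 5, HIF1A and ELOB were chosen after their values were seen). ADM, a vasodilator peptide, rose and LOX, the collagen crosslinking oxidase, fell in all 4. ADM read 5.32, 5.85 and 6.22 at the lowest, median and highest knockout array and 4.40, 4.81 and 5.13 in parental arrays, and LOX read 3.30, 3.80 and 4.22 in knockout arrays and 5.95, 6.30 and 6.71 in parental arrays. Their mean differences were 1.00 and -2.53, in opposite directions, and the list had medians between -0.03 and 0.06. None of the 11 ligase subunits and substrates of CRBN was called in all 4 conditions, and DDB1, its adaptor, differed by -0.21 and was called lower in 1.

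In the DNA repair lists, none of 17 base excision repair genes was called in all 4 conditions. Of 13 partners of RAD18, MAD2L2, a subunit of polymerase zeta, rose and PCNA, the sliding clamp, fell in all 4, by 0.81 and -0.54. MAD2L2 read 8.55, 8.85 and 8.95 in knockout arrays and 7.78, 8.0 and 8.17 in parental arrays, and PCNA read 8.97, 9.13 and 9.28 in knockout arrays and 9.38, 9.72 and 9.80 in parental arrays, without overlap in either gene. Of the 18 autophagy genes, GABARAPL1, an LC3-type ubiquitin-like protein, and ATG9A, the lipid scramblase of early autophagosomes, rose in all 4 by 0.68 and 0.55, beside a difference of 0.65 for ATG7. ATG4C (-0.47) was called lower in 3 conditions and ATG10 (-0.43) in 2 (both chosen after their values were seen), and the list had medians between -0.00 and 0.12 in the 4 conditions.

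Among the other lists, MAL2, a relative of the CMTM proteins, rose in all 4 conditions. It was not above background on any parental array and was above it on 11 of 12 knockout arrays, so it was at least 1.94-fold higher. CMTM3 differed by 0.02 and CMTM4 by -0.36, and CD274, which encodes the PD-L1 that CMTM6 stabilises, was not above background in either line. Of 14 Hippo pathway genes set beside VGLL4, YAP1, the coactivator of TEAD factors, fell in all 4 by 1.44 on the log2 scale, with 4.80, 5.19 and 5.47 in knockout arrays and 6.16, 6.63 and 7.15 in parental arrays. Of 14 genes set beside PPARG, ACSL1, an acyl-CoA synthetase, rose in all 4 by 1.30. Of 16 clock genes, PER3 rose in all 4 by 0.74 and RORB fell by 0.99. Of 10 oligosaccharyltransferase genes, TUSC3 fell in all 4 by 0.59, and of 27 mitochondrial ribosomal genes MRPS16 rose by 0.38. Of 12 calcium channel and pump genes set beside ITPR1 and ATP2B2, none was called in all 4 conditions.

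Some of these partners lie among neighbours that differed in the same direction. The 10 nearest expressed genes on each side of PCNA, on chromosome 20, had a median of -0.81, and 1 of the 20 lay above 0. The 20 neighbours of NUP43 on chromosome 6 had a median of 0.47, and all 20 lay above 0. Those of MRPS16 on chromosome 10 had a median of 0.37 with 19 above 0, those of SAR1A on the same chromosome 0.26 with 15 above 0, and those of ZZZ3 on chromosome 1 a median of -0.40 with 3 above 0. The neighbours of MAL2 on chromosome 8 had a median of 1.03 with 14 of 20 above 0. Those of YAP1, LOX, ADM, MAD2L2, RORB and PER3 had medians between -0.07 and 0.01, although only 4 of the 20 neighbours of LOX lay above 0. ENY2 (-0.45) and TUSC3 (-0.59) on chromosome 8 fell, and their neighbours had medians of 0.21 and 0.22 with 11 and 14 of 20 above 0. AHCTF1 (-0.38) fell too, and 2 of the 13 neighbours of AHCTF1 on chromosome 1 lay above 0. For CYFIP2, GABARAPL1 and ATG9A, which rose, the neighbours had medians of 0.12, 0.13 and 0.11, with 12, 15 and 13 of 20 above 0. For ACSL1, which rose, the median was 0.08 with 12 of 16 above 0. For SUPT3H, which fell, it was -0.06 with 9 of 20 above 0. The part of position in the change of any of these genes was not tested.

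Radiation and time in culture were not used to choose the genes, and they were tested in the same fit. No listed gene was called after 2 Gy in the knockout line at 4 h or 24 h, where 0% of all genes was called, with 2 and 1 listed genes at an unadjusted p below 0.05, beside 3.3% and 4.16% of all genes at that level. None was called after 2 Gy in the parental line at 4 h, beside 0.226% of all genes, or at 24 h, beside 0.0678%, with 6 and 2 at an unadjusted p below 0.05, beside 6.69% and 6.93% of all genes. Nor was any listed gene called between 24 h and 4 h. In the knockout line 0% of all genes was called at 0 Gy and 0.0452% at 2 Gy. In the parental line the shares were 0% at 0 Gy and 0.695% at 2 Gy (0.645% higher and 0.0509% lower). At an unadjusted limma p below 0.05 there were 4, 6, 8 and 3 of the 55 listed genes in that order. The shares of all genes at that level were 6.87%, 7.94%, 4.69% and 8.8%. The 8 of 55 in the unirradiated parental line were a larger share than the 4.69% of all genes, and none of the 8 was called. The 4 differences between the lines in these responses called 0 listed genes and 0% of all genes, with 0 to 2 listed genes at an unadjusted p below 0.05, beside 2.61% to 3.55% of all genes. The medians of the 38 expressed genes lay between -0.04 and 0.003 in these 12 comparisons.

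**Figure D5:**
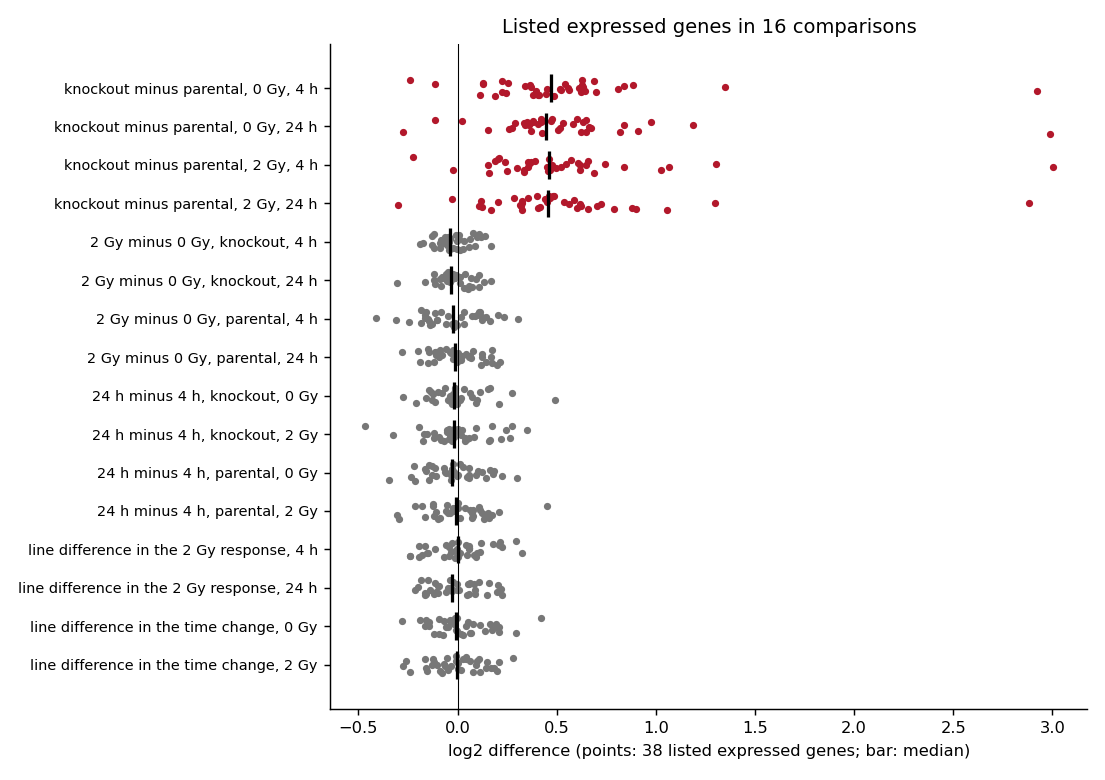
log2 difference of each of the 38 listed expressed genes (points) and their median (bar) in 16 comparisons; red points are the 4 comparisons of the lines, which the choice of genes used, and grey points the 12 comparisons it did not use. The red medians lie between 0.45 and 0.47 and the grey medians between -0.04 and 0.003, with single grey points between -0.47 and 0.49.

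A gene's difference between 2 groups had a 95% interval of 0.25 on either side at the median of the 38 expressed genes, and a difference between 2 responses one of 0.35. These intervals are not adjusted for the number of genes tested. CMTM7 shows the contrast in size. Its response to 2 Gy was 0.10 (95% interval -0.15 to 0.34) at 4 h and 0.11 (-0.14 to 0.35) at 24 h in the knockout line, and 0.02 (-0.23 to 0.26) and 0.21 (-0.03 to 0.46) in the parental line, against its line difference of 2.95. For CRBN the parental line read 7.03, 6.52 and 6.81 at 4 h after 2 Gy against 7.36, 7.14 and 7.10 without radiation. The difference was -0.41 (95% interval -0.69 to -0.13, limma adjusted p = 0.507), and the difference between the lines in this response was 0.33 (-0.07 to 0.72). The 6.52 came from replicate 2, whose median over all expressed genes, 7.31, was the lowest of the 24 arrays. That array was 1 of 2 left out in an alternative fit for their narrow signal range.

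The genes nearest to a call were SLC4A7 and TAMM41, both with time. SLC4A7 read 7.71, 7.60 and 7.63 in the irradiated parental line at 24 h and 7.10, 7.20 and 7.29 at 4 h, without overlap, a difference of 0.45 (95% interval 0.22 to 0.68, limma adjusted p = 0.0526). In the unirradiated knockout line it read 8.02, 8.15 and 8.14 at 24 h and 7.45, 7.78 and 7.59 at 4 h, a difference of 0.49 (limma adjusted p = 0.391). The difference was 0.35 in the irradiated knockout line and 0.30 in the unirradiated parental line, so its sign was the same in all 4 settings. TAMM41 read 6.96, 7.21 and 7.10 in the irradiated knockout line at 24 h and 7.52, 7.61 and 7.55 at 4 h, also without overlap, a difference of -0.47 (95% interval -0.68 to -0.25, limma adjusted p = 0.09). The corresponding difference in the irradiated parental line was -0.31 and the 2 without radiation were -0.08 in the knockout line and -0.07 in the parental line. Neither gene passed the threshold in this fit. With array weights, which count outlying arrays less, SLC4A7 in the irradiated parental line (adjusted p = 0.00561, limma) and TAMM41 in the irradiated knockout line (adjusted p = 0.0469, limma) did, and so did SLC4A7 with dim genes left out (adjusted p = 0.031, limma). The difference between the lines in the time change at 2 Gy was -0.10 (-0.43 to 0.22) for SLC4A7 and -0.16 (-0.46 to 0.14) for TAMM41.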

How the data were processed

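The deposited table holds log2 signals of 24351 probe sets on 24 arrays. The log2 values were deposited after RMA and Affymetrix Expression Console 1.1, per the submitters' processing notes; RMA corrects background, equalises the distributions of arrays by quantiles and summarises probes. No source used here gives the genome build of the probe sets. The platform annotation gives 1 symbol to 17709 probe sets. The highest-mean probe set was kept for each gene, which left 17687 genes, and RefSeq GRCh38.p14 gave their order on chromosomes and the promoter windows (the first listed window per gene). Arrays carry no read depth, so their number limits precision.

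The tests used limma 3.58.1 under R 4.3.3 (1 mean per group over 24 arrays, eBayes with trend, Benjamini-Hochberg over 17687 genes, calls at adjusted p below 0.05). The step was tested on simulated data. The listed genes, partner lists and marker lists were chosen with earlier results of these data known. Named were the listed genes of known function, the 6 expressed genes with the largest and the 6 with the smallest difference, the 3 dim genes with the largest, the 3 genes on each side of each end, and up to 3 partners per list called one way in all 4 line comparisons. The other listed genes are each given briefly.

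The titles number replicates 1 to 3 in each group. Same-numbered arrays of both groups deviated together (all 3 correlations over 0.1) in knockout minus parental at 0 Gy and 4 h (0.103 to 0.168) and at 2 Gy and 24 h (0.151 to 0.231), and in the knockout line's response to 2 Gy at 4 h (0.154 to 0.269) and 24 h (0.134 to 0.237). Alternatives covered the fit, the scaling, the handling of probe sets and dim genes, and arrays left out.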

Additional observations from a re-analysis of the deposited data

How the results depend on the processing

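The text reports 71 results with 919 recomputed values. These include the mean line differences of 43 named genes, with 459 recomputed values from settings chosen for them after seeing the data. The other results are counts and medians, and 25 of their values moved past the limits set here (1.5 times a count, or 1 SD of a median). None of the 919 reversed. The values of the named genes kept their direction. For the listed genes they stayed within 1 SD, and for partners and SLFN11 on their side of the threshold. The cause of each move was not tested unless given. The median difference of the listed expressed genes at 0 Gy and 4 h was 0.44 to 0.53 with 1 array left out, and at 0 Gy and 24 h 0.51 with the expressed floor at 7. Without one array, partners called at 0 Gy and 4 h numbered 12 to 21 higher and 12 to 17 lower, at 0 Gy and 24 h 12 to 16 higher and 12 to 17 lower, at 2 Gy and 4 h 13 to 25 higher, and at 2 Gy and 24 h 16 to 20 lower; fewer arrays leave less precision. Without the intensity trend, 12 partners were called lower at 0 Gy and 24 h. With the replicate number as a block, 31 partners were called higher at 2 Gy and 4 h, and with the block on the compared arrays only, a setting chosen after seeing the data, 32 at 0 Gy and 4 h. For time, no comparison met the limit for pairing given above, with all correlations of same-numbered arrays over 0.1. In the irradiated parental line these correlations were 0.09 to 0.475, so the numbers may still pair arrays there. For time, the block gave 1 listed gene in the unirradiated knockout line (SLC4A7, and 2 with TIMP4 on the compared arrays). The block gave 1 in the irradiated knockout line (TAMM41, also with array weights). In the irradiated parental line it gave 1 (SLC4A7, also with array weights and with dim genes left out). In the 4 comparisons that met the limit for pairing the block gave 35, 35, 0 and 0 listed genes called in either direction. It changed no count of listed genes or partners there by over 1.5 times apart from the setting named above. Over all genes, the main fit called 0 in the knockout line's response to 2 Gy. The block called 11 at 4 h and 0 at 24 h, and 18 and 42 on the compared arrays only. Of the dim listed genes, PPARG, HDAC11, LRRN1, CNTN4 and ARPP21 were at or near background.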

Other observations

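The stretch between CNTN4 and ARPP21 holds 23 expressed genes that the list does not name. Only some of them are given here, chosen after their values were seen. Over all 23 the differences ranged from 0.09 to 1.11, with a median of 0.52. XPC, which recognises bulky DNA damage, differed by 0.30 between the knockout and parental lines (log2, mean of 4 conditions). SGO1, the protector of centromeric cohesion, differed by 0.60 and CLASP2, a microtubule-binding protein, by 0.62. HACL1, an enzyme of peroxisomal fatty acid breakdown, differed by 0.66, DPH3, needed to make diphthamide, by 0.56 and CHCHD4, a mitochondrial import oxidoreductase, by 0.47. CNOT10, a subunit of the CCR4-NOT deadenylase, differed by 0.64, CRTAP, a partner of collagen prolyl 3-hydroxylation, by 0.45 and NKIRAS1, a RAS-like regulator of NF-kB inhibitors, by 0.71. RBMS3, an RNA-binding protein, differed by 0.77. The rule that defined the stretch used the same comparison, so these values are a description.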
